A study of Sus scrofa with 33 samples.

Results

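The comparison described here asks how gene expression in the failing right ventricle moved after a shunt had been opened, against what happened over the same interval without one. It used 22 of the 33 arrays of the series, those from the biopsy at 120 min of pulmonary banding and from the last biopsy, in all 11 pigs. For each pig the value at 120 min was subtracted from the value at the last biopsy, and this later change was compared between 6 shunt pigs and 5 control pigs. Arrays were assigned by their labelled arm and biopsy, with no measured value used, and the spiked-in control probe sets were left out.

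Biopsies came from the right ventricular free wall of pigs (Sus scrofa), for which the labels name no strain or age. Shunt pigs had 120 min of pulmonary banding and then 60 min of banding with a modified Glenn shunt. Control pigs had 120 min of pulmonary banding and then 60 min of banding with no shunt. Pigs were randomised only after right ventricular failure was established, so banding, and failure, was shared by both arms. No unbanded animals were among the samples, so a later change in either arm also holds whatever else passed in that hour.

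Pulmonary banding narrows the pulmonary artery and makes the right ventricle pump against a high pressure. A Glenn shunt leads the superior vena cava into the pulmonary artery, so that part of the venous return reaches the lungs without passing through the right ventricle, which lowers its filling. Loaded heart muscle is known to express natriuretic peptides and stretch-response genes, and injured or stressed muscle expresses immediate early genes, heat shock proteins and cytokines, all of which can turn over within hours.

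The arrays carried heart muscle. MYH7, the slow myosin heavy chain of the ventricle, had the highest mean of its marker list, and the ventricular myosin light chain MYL2 averaged 14.9 and the troponin TNNI3 14.8 on the log2 scale over all arrays, while the atrial peptide gene NPPA averaged 8.93 and the haemoglobin gene HBB 7.88. Values ran from 2.21 to 15.2, and arrays correlated with each other at 0.956 to 0.995. The spiked-in Dap and BioB controls differed in mean between shunt pigs 1 to 4 (Dap mean 3.3, BioB 8.24, 12 arrays), shunt pigs 5 and 6 (Dap 8.7, BioB 5.91, 6 arrays) and the control pigs (Dap 7.9, BioB 9.27, 15 arrays). The BioB ranges of these sets did not overlap. Dap did, at 8.46 to 8.95 in shunt pigs 5 and 6 and 6.92 to 9.33 in control pigs. The sets were drawn by pig within each arm, so none could hold pigs of both arms. Array set and arm thus cannot be told apart in any comparison below. Each later change compares arrays of 1 such set, but whether the control arrays form a single set was not tested. Arrays hold no read depth, and the number of pigs limits the precision. The later change of the GAPDH 3' over 5' signal, a sign of RNA quality, was -0.05 ± 0.18 in shunt pigs and -0.05 ± 0.29 in control pigs (SD, n = 6 and 5, two-sided exact permutation p = 1.0).

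No gene passed the test for a later change that differed between the arms. The natriuretic, immediate early, heat shock and cytokine genes of the panel spread widely between pigs of the same arm, and for all 26 measured panel genes the values of the arms overlapped. In limma 0 of 23999 probe sets (0%) passed an adjusted p of 0.05 for the shunt minus control difference, and the smallest adjusted p was 0.9997. At an unadjusted p under 0.05 there were 737 probe sets (3.07%), of which 368 had a higher and 369 a lower later change in shunt pigs. Among the 6765 genes, each taken as its probe set with the highest mean, 158 had an unadjusted p under 0.05 (2.34%), 82 higher (1.21%) and 76 lower (1.12%). When each array was centred on its median the split was 479 higher to 303 lower, a share of 61.3% higher against 49.9% in the deposited scaling. With shunt pigs 1 to 4 alone against the control pigs 0 passed and 715 had an unadjusted p under 0.05, and with shunt pigs 5 and 6 alone 0 passed and 510 did.

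Neither arm on its own had a called later change. In shunt pigs 0 of 23999 probe sets passed in limma, with 2146 at an unadjusted p under 0.05 (8.94%) and a smallest adjusted p of 0.0732. With 1 pig left out 0 to 11 passed there, 11 without shunt pig 5 and 3 without shunt pig 4. In control pigs 0 of 23999 passed, with 737 at an unadjusted p under 0.05 (3.07%) and a smallest adjusted p of 0.871. That these counts differ between the arms was not itself tested, and the shunt arm held 1 pig more.

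The intervals show what size of difference these pigs leave room for. The median gene had a 95% interval reaching 0.28 either side of its estimate on the log2 scale, a factor of 1.21, and from the 5th to the 95th percentile of genes this reach ran from 0.20 to 0.54. For 6626 of 6765 genes (97.9%) the whole interval lay within 2-fold in either direction, and for 5831 (86.2%) within 1.5-fold. Genes were not filtered by level, so these shares include genes near the bottom of the array's range. For such genes a narrow interval need not bound a change in the transcript, and how many there were was not counted. No gene and 7 probe sets had an estimated difference over 2-fold. The interval reached past 2-fold for 139 genes. Of the 26 panel genes described below 10 had an interval within 2-fold. The intervals of all the others reached past it, among them NPPA, NPPB, FOS, EGR1, ATF3, IL6, PTX3, CXCL8, CCL2, HSPA6 and HMOX1. Since the biopsies are whole tissue, fewer cells of a type and less RNA per cell cannot be told apart in any of these values.

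**Figure D1:**
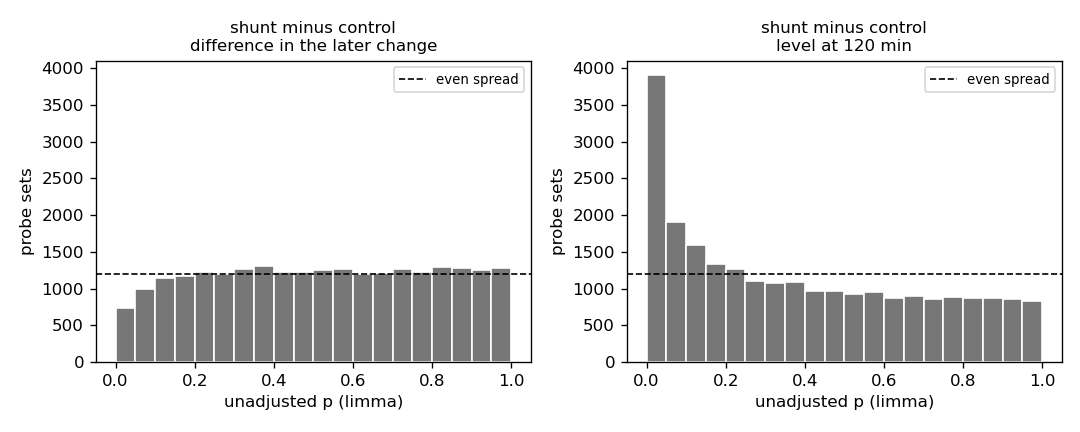
Number of probe sets (vertical axis) by unadjusted limma p (horizontal axis, bins of 0.05) for the shunt minus control difference in the later change (left panel) and for the shunt minus control level at 120 min, before the shunt (right panel). The dashed line is an even spread over the bins. The lowest bin held 737 probe sets for the later change and 3903 for the level at 120 min.

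The natriuretic peptide genes, which heart muscle expresses under load, varied more between pigs than between arms. NPPB, which encodes the B-type peptide, had later changes of -0.36 to 2.40 in the shunt pigs, with a median of 0.84. Control pigs 1 to 5 stood at 2.31, 1.23, 1.71, 2.01 and -2.13. The transcript was thus higher at the last biopsy in 5 of 6 shunt pigs and in 4 of 5 control pigs, and control pig 5 stood apart. The means were 0.95 ± 0.60 in shunt pigs and 1.02 ± 0.65 in control pigs (SE of the fit), and the difference of -0.08 ± 0.88 had a 95% interval of -1.90 to 1.75 (unadjusted p = 0.932). By array set the mean later change was 0.93 in shunt pigs 1 to 4 and 0.99 in shunt pigs 5 and 6. Without control pig 5 the difference was -0.86, and it was above 0 when any of 5 other single pigs was left out.

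NPPA, the gene of the atrial peptide, had later changes of -1.29, 0.20 and 1.09 as the lowest, median and highest shunt pig. Values in control pigs 1 to 5 were 2.00, 1.04, -0.53, 0.02 and -4.59. Control pig 5 was lowest here as well, and the shunt pigs lay inside the range of the control pigs. The difference was 0.52 ± 1.12 (unadjusted p = 0.646), and -0.53 without control pig 5.

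ANKRD1, a stretch-responsive repressor at the sarcomere, had a mean later change of 0.07 ± 0.10 in shunt pigs and 0.02 ± 0.11 in control pigs (difference 0.05 ± 0.15, interval -0.26 to 0.36), but its other probe set gave 0.07 ± 0.61. MYH7, the slow myosin gene, differed by -0.03 ± 0.07, with an interval of -0.17 to 0.11, at a level near the top of the array's range. The actin-binding gene XIRP1 of the intercalated disc differed by 0.05 ± 0.38, and the matrix protein gene CYR61, induced by stretch, by -0.26 ± 0.54. Of the 16 measured genes in the list of natriuretic, stretch and fetal cardiac genes 0 passed and 0 had an unadjusted p under 0.05. The median difference of the list was 0.05, against 0.00 over all genes.

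Immediate early genes, transcription factors switched on within minutes of a stimulus, had the widest range of medians between pigs among the 23 gene lists. FOS, a subunit of the AP-1 factor, had later changes of -2.43, -0.50 and 0.92 as the lowest, median and highest shunt pig. Those of control pigs 1 to 5 were -1.93, 1.83, 3.07, -0.79 and -0.70. The ranges overlapped, and the difference was -0.73 ± 0.86 (interval -2.50 to 1.04, unadjusted p = 0.404). With 1 pig left out it ran from -1.28 (without control pig 1) to -0.04 (without control pig 3). EGR1, a zinc finger factor, differed by -0.50 ± 0.70 (-1.06 without control pig 1, -0.16 without shunt pig 5), ATF3, a stress-induced repressor, by 0.02 ± 0.82, and MYC by -0.19 ± 0.42.

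The 20 measured immediate early genes had a median later change of 0.58 in shunt pig 3 and 0.20 in shunt pig 6, against -0.96 in shunt pig 5. Among control pigs it was 0.57 in pig 2 and 0.68 in pig 3, against -0.97 in pig 1. In control pig 1 all 20 members were lower at the last biopsy, and in shunt pig 3 none was. The signs were mixed in shunt pig 1, where 14 of 20 were lower (median -0.19), and in shunt pig 2, where 12 of 20 were (median -0.10). Pigs with high and with low medians were thus found in both arms, and 0 of 20 members passed or had an unadjusted p under 0.05 for the difference.

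Inflammatory genes were likewise spread over the pigs of both arms. IL6, the acute-phase cytokine, had later changes of -1.71, 0.59 and 1.70 as the lowest, median and highest shunt pig. Against these, control pigs 1 to 5 stood at -0.39, 0.65, -0.05, -2.32 and 1.79. The arms overlapped, and the difference was 0.46 ± 0.87 (interval -1.33 to 2.25, unadjusted p = 0.599). CXCL8, the neutrophil chemokine, differed by 0.23 ± 0.70, CCL2, the monocyte chemokine, by 0.32 ± 0.59, and the endothelial adhesion molecule ICAM1 by -0.16 ± 0.45. PTX3, the acute-phase protein pentraxin 3, had mean later changes of 0.58 ± 0.45 in shunt pigs and 0.49 ± 0.50 in control pigs, a difference of 0.09 ± 0.67.

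In the list of cytokines, chemokines and NF-kB feedback genes 0 of 23 measured members passed, and CCL8 alone had an unadjusted p under 0.05. The median difference was 0.11. In the list of IL-6/STAT3 acute-phase genes the median was 0.09 over 11 members, in that of leukocyte adhesion and endothelial activation 0.08 over 13, and in that of interferon-stimulated genes 0.06 over 18, none with a member at an unadjusted p under 0.05. The proteasome gene PSMB8 came closest in the interferon list (0.27 ± 0.15, unadjusted p = 0.0876), and its control values held 1 outlying pig.

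Inducible heat shock genes spread over several log2 units within both arms. HSPA6, a strictly inducible member of the HSP70 family, had later changes of -4.17, 0.24 and 1.31 as the lowest, median and highest shunt pig. Control pigs 1 to 5 had -0.87, 0.56, 2.21, -3.53 and -0.44. Shunt pigs 4 and 5 and control pig 4 had the low values, so each arm held both high and low pigs. The difference was -0.30 ± 1.10 (interval -2.58 to 1.98, unadjusted p = 0.788). BAG3, the co-chaperone of HSP70, differed by 0.06 ± 0.42. Of 26 measured heat shock proteins and chaperones 0 passed and 0 had an unadjusted p under 0.05, with a median difference of 0.04. The lowest was HSP90B1, the endoplasmic reticulum chaperone, at -0.48 ± 0.26 (unadjusted p = 0.0787), though its other probe set gave -0.14.

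**Figure D2:**
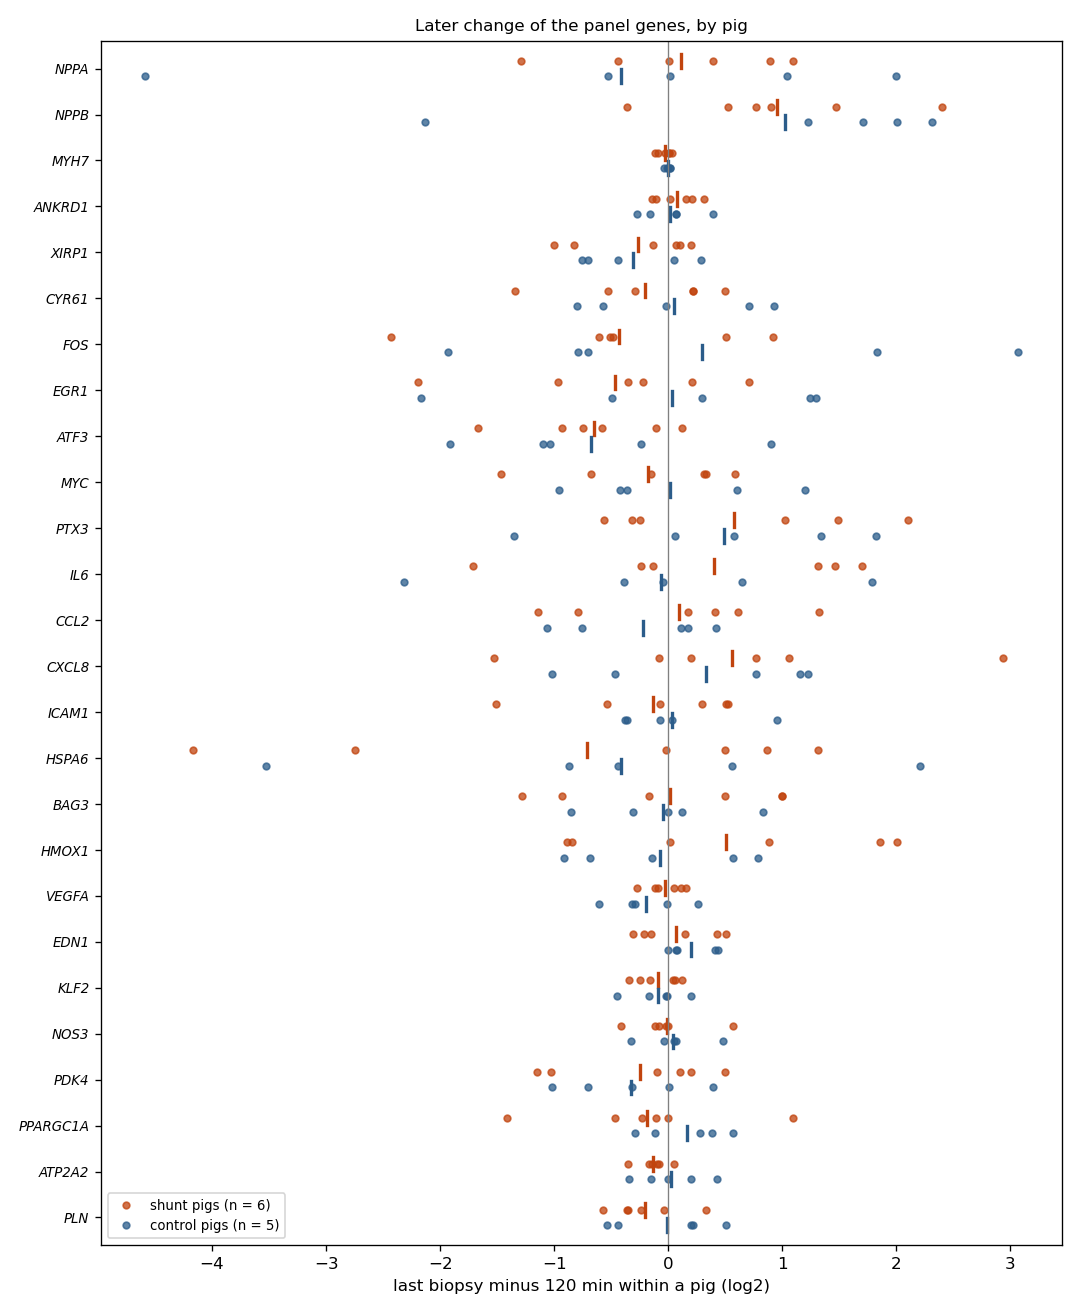
Later change (last biopsy minus 120 min within a pig, log2, horizontal axis) of the 26 measured panel genes, with 1 point for each of 6 shunt pigs (orange, upper row of each gene) and 5 control pigs (blue, lower row) and a vertical bar at the mean. The arms overlap for all 26 genes, and control pig 5 gives the lowest points of NPPA (-4.59) and NPPB (-2.13).

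The vascular growth factor VEGFA differed by 0.17 ± 0.16, although 2 of its 3 other probe sets had the opposite sign. The vasoconstrictor gene EDN1 differed by -0.13 ± 0.22, the flow-induced factor KLF2 by 0.00 ± 0.14 and the endothelial nitric oxide synthase NOS3 by -0.06 ± 0.17. HMOX1, which encodes the haem-degrading enzyme, had the highest difference of the panel, 0.58 ± 0.47, with later changes of -0.89, 0.45 and 2.01 as the lowest, median and highest shunt pig. Control pigs 1 to 5 stood at -0.14, 0.57, -0.91, -0.69 and 0.79, so that the arms overlapped (interval of the difference -0.39 to 1.55, unadjusted p = 0.230). It was 0.28 without shunt pig 6 and 0.86 without shunt pig 4.

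Among the 23 vasoactive, shear-responsive and angiogenic genes 0 passed, and 2 had an unadjusted p under 0.05. Both encode inhibitors of DNA binding by helix-loop-helix factors and are targets of BMP signalling. ID1 had later changes of -0.36, 0.20 and 0.58 as the lowest, median and highest shunt pig. Values in control pigs 1 to 5 were -0.15, -0.36, -0.99, 0.36 and -0.77. It was higher at the last biopsy in 5 of 6 shunt pigs and in 1 of 5 control pigs, with overlap, and the difference was 0.54 ± 0.23 (unadjusted p = 0.0286, adjusted p = 0.9997). ID3 differed by 0.46 ± 0.19 (unadjusted p = 0.0271), and was higher in 5 of 6 shunt pigs and 3 of 5 control pigs. The median difference of the list was -0.03.

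The differences of most genes in the tricarboxylic acid cycle, oxidative phosphorylation and fatty acid lists were slightly below 0, without a call. Of 21 genes in the tricarboxylic acid cycle list 20 had a negative difference, with a median of -0.14, the lowest of the 23 gene lists. The median later change of the list ran from -0.24 to 0.06 over shunt pigs and from -0.25 to 0.25 over control pigs, so the arms overlapped. Of 38 oxidative phosphorylation subunits 33 were negative with a median of -0.08, and of 28 genes of fatty acid uptake, storage and oxidation 18 were, with a median of -0.06. Over all 6765 genes 3445 were negative and the median was 0.00. The medians of these 3 lists stayed below 0, and that of the ribosome biogenesis genes described below above 0, when arrays were centred on their medians or quantile normalised again. Members of such a list vary together within a pig, so the count of signs is no count of independent observations. All 21 and all 38 intervals of the first 2 lists lay within 2-fold, as did 97.9% of those of all genes. The hypoxia and glycolysis list went the other way, with 12 of 20 genes positive and a median of 0.04.

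LPL, the lipoprotein lipase that frees fatty acids at the vessel wall, had later changes of -0.52, -0.30 and 0.25 as the lowest, median and highest shunt pig. Those of control pigs 1 to 5 were 0.21, -0.11, 0.55, -0.26 and 0.47. It was lower in 5 of 6 shunt pigs and 2 of 5 control pigs, and differed by -0.41 ± 0.18 (unadjusted p = 0.0319, adjusted p = 0.9997). Its other probe set gave -0.39. PDK4, the kinase that shuts off pyruvate oxidation, differed by 0.08 ± 0.50, and the mitochondrial coactivator gene PPARGC1A by -0.35 ± 0.37, or -0.61 without shunt pig 4 and -0.11 without shunt pig 2. The lowest p in the tricarboxylic acid cycle list was that of pyruvate carboxylase, PC (-0.20 ± 0.10, unadjusted p = 0.0609), which is not itself a step of the cycle.

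Among the contractile and calcium-handling genes the whole interval lay within 2-fold for 17 of 19 genes of ion channels, calcium handling and gap junctions and for 15 of 16 sarcomere genes. ATP2A2, the calcium pump of the sarcoplasmic reticulum, differed by -0.16 ± 0.12, with 3 other probe sets between 0.01 and 0.11. PLN, which encodes its inhibitor phospholamban, differed by -0.19 ± 0.19, and its other probe set gave -0.42 ± 0.22. In the channel and calcium list the median difference was -0.10, 14 were negative and the lowest was CASQ2, the calcium store protein of the sarcoplasmic reticulum, at -0.48. In the sarcomere list the median was -0.03 and the highest was MYL4, the atrial light chain, at 0.47. Neither list had a member with an unadjusted p under 0.05.

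Ribosome biogenesis and translation genes had the highest median of the gene lists, 0.19, with 20 of 21 measured members positive and 0 passing. The median later change of the members was 0.22 in shunt pigs and 0.04 in control pigs. By pig it was 0.39, 0.86, 0.09, -0.17, -0.22 and 0.43 in shunt pigs 1 to 6, and -0.01, 0.28, 0.16, -0.10 and -0.01 in control pigs 1 to 5. The high values came from shunt pigs 1, 2 and 6, and the 2 lowest of all 11 pigs were also shunt pigs. DKC1, which encodes the pseudouridine synthase dyskerin, differed by 0.61 ± 0.28 (unadjusted p = 0.0367, adjusted p = 0.9997), with 1 outlying control pig, and its other probe set gave 0.28.

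Over the 23 gene lists together, 416 distinct genes were measured. None passed, and 7 had an unadjusted p under 0.05, or 1.68%, against 2.34% of all genes. Besides CCL8, LPL, ID1, ID3 and DKC1 these were WARS, the tryptophanyl-tRNA synthetase (0.27 ± 0.12, unadjusted p = 0.0291), and RORA. The remaining lists, on the unfolded protein response, growth arrest and apoptosis, oxidative stress, hypoxia, matrix, glucocorticoid response, clock and protein breakdown, had medians within the range of -0.14 to 0.19 set by the cycle enzymes and ribosome biogenesis, as had the 3 cold-inducible genes (0.16).

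**Figure D3:**
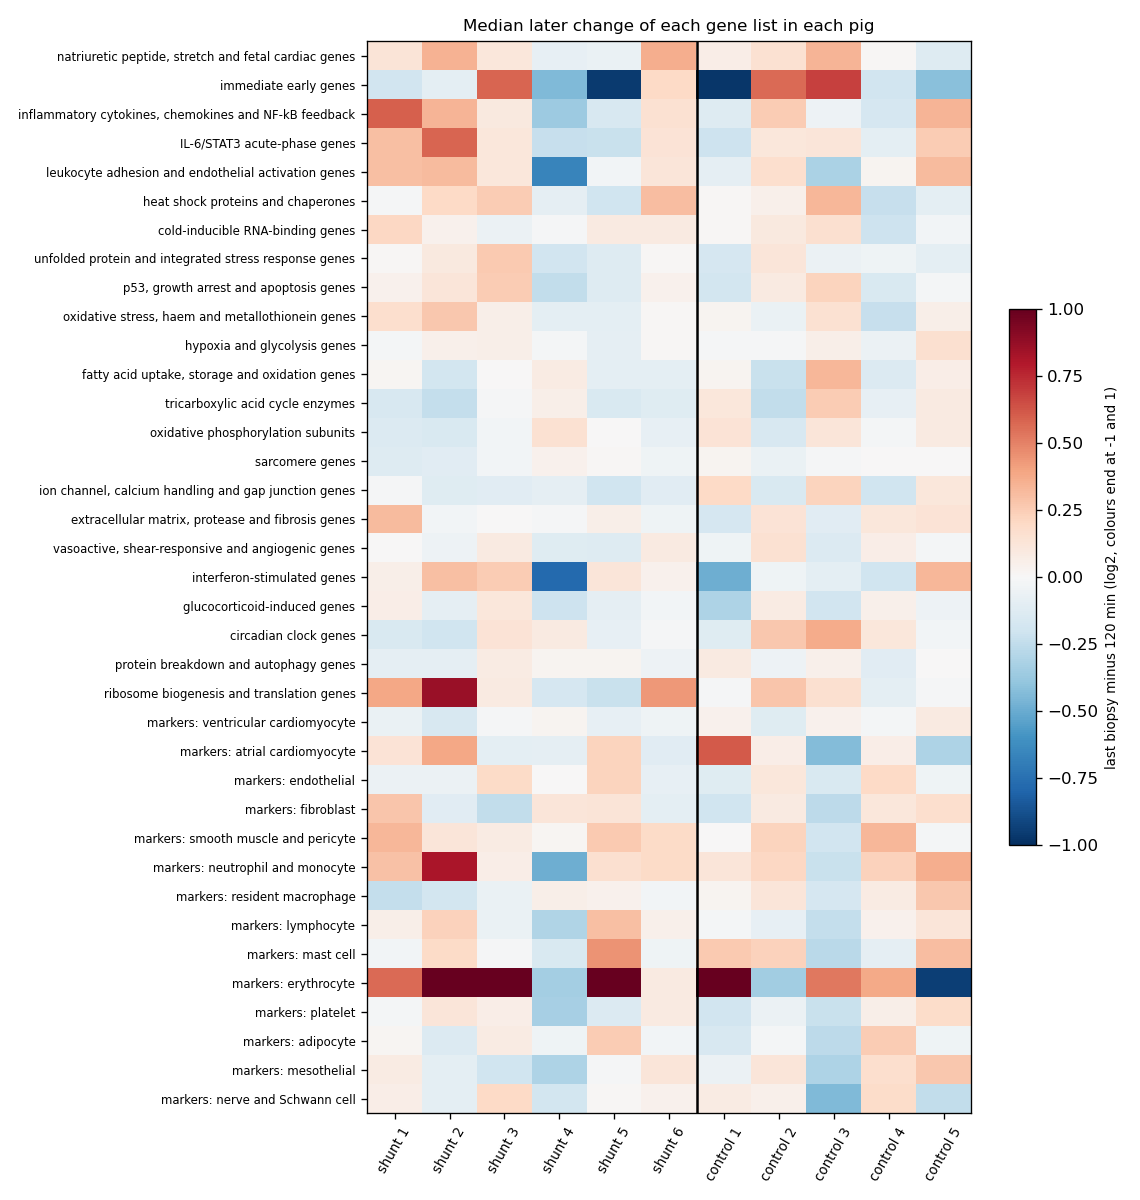
Median later change (last biopsy minus 120 min, log2, colour, ending at -1 and 1) of each gene list and each cell type marker list (vertical axis) in each of 6 shunt pigs (left of the line) and 5 control pigs (right). Immediate early genes run from -0.96 (shunt 5) to 0.58 (shunt 3) among shunt pigs and from -0.97 (control 1) to 0.68 (control 3) among control pigs.

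Of the 24 genes with the smallest p, 12 of each sign, none passed, and 2 (CCL8 and RORA) belonged to a gene list, or 8.33%, against 6.15% of all genes. Among the 12 with a higher later change in shunt pigs the differences ran from 0.28 to 0.71, with unadjusted p of 0.0015 to 0.00984 and a lowest adjusted p of 0.9997. CYP3A29, a pig cytochrome P450 of the drug-metabolising 3A family, had later changes of 0.08, 0.31 and 0.98 as the lowest, median and highest shunt pig. Against these, control pigs 1 to 5 stood at -0.23, -0.21, -0.45, -0.09 and -0.48. All shunt pigs were up and all control pigs were down, which held for 3 of 6765 genes (0.0443%), and the difference was 0.71 ± 0.20, or 1.63-fold. The mean later change was 0.33 in shunt pigs 1 to 4 and 0.58 in shunt pigs 5 and 6. Its mean level was low, at 5.0 before and 5.42 after in shunt pigs and 4.41 before and 4.12 after in control pigs.

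CDH6, a cadherin of cell adhesion, and NME3, a nucleoside diphosphate kinase, were the others with all shunt pigs up and all control pigs down. CDH6 differed by 0.40 ± 0.12 at a mean level below 3 in both arms, near the bottom of the array's range, and NME3 by 0.32 ± 0.10. The lowest shunt and highest control pig lay close, at 0.01 and -0.05 for CDH6 and at 0.01 and -0.01 for NME3. A further 2 of the 12 did not overlap between the arms, KIAA0907 (0.42 ± 0.14) and PIGX, a subunit of the enzyme that starts glycosylphosphatidylinositol mannosylation (0.28 ± 0.09). For KIAA0907 the lowest shunt pig stood at -0.03 and the highest control pig at -0.04. Other members were FARSA, a phenylalanyl-tRNA synthetase subunit (0.34 ± 0.11), MAP4K4, a kinase upstream of JNK (0.41 ± 0.14), JMJD6, a Jumonji-domain hydroxylase (0.33 ± 0.11), and NOSTRIN, which moves endothelial nitric oxide synthase from the membrane (0.35 ± 0.12). POGK (0.38 ± 0.12), SPAG1 (0.45 ± 0.16) and DLG5 (0.45 ± 0.16) completed the 12. Another probe set of POGK gave -0.06, and those of KIAA0907 gave 0.21 and -0.15. The other probe set gave 0.12 for FARSA, 0.10 for MAP4K4 and 0.06 for DLG5. The level of NOSTRIN differed the other way before the shunt, by -0.46 at 120 min (adjusted p = 0.0617), and by -0.11 at the last biopsy. That of FARSA differed by -0.31 at 120 min (adjusted p = 0.151) and by 0.03 at the last biopsy. CDH6 also stood the other way at 120 min, at -0.21 ± 0.09, and at 0.18 at the last biopsy. NME3 (-0.11), JMJD6 (-0.12) and KIAA0907 (-0.16) were below 0 at 120 min as well. The rest of the 12 were above 0, and none of the 12 passed at 120 min.

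The 12 with a lower later change in shunt pigs differed by -0.74 to -0.27, with unadjusted p of 0.00287 to 0.0145. TRAF6, the ubiquitin ligase that carries Toll-like and interleukin-1 receptor signals to NF-kB, had later changes of -0.75, -0.41 and -0.12 as the lowest, median and highest shunt pig. Control pigs 1 to 5 had 0.25, 0.19, 0.21, 0.46 and 0.33. All shunt pigs were down and all control pigs up, as for 2 of 6765 genes (0.0296%), and the difference was -0.68 ± 0.20 (unadjusted p = 0.00287, adjusted p = 0.9997). The mean later change was -0.43 in shunt pigs 1 to 4 and -0.31 in shunt pigs 5 and 6. The other probe set of TRAF6 gave 0.08 ± 0.11, so the 2 probe sets disagreed.

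CCL8, a chemokine for monocytes, had later changes of -1.04, -0.74 and -0.03 as the lowest, median and highest shunt pig. Control pigs 1 to 5 stood at 0.37, 0.02, -0.25, -0.54 and 0.82. All 6 shunt pigs were lower at the last biopsy and 3 of 5 control pigs were higher, with overlap, and the difference was -0.74 ± 0.24 (interval -1.24 to -0.23, unadjusted p = 0.00594). The level of CCL8 started higher in shunt pigs, by 0.42 ± 0.24 at 120 min, and differed by -0.32 ± 0.26 at the last biopsy. Neither level difference passed in limma (adjusted p = 0.428 and 0.563). RORA, a nuclear receptor of the circadian clock, differed by -0.67 ± 0.24, being lower in 5 of 6 shunt pigs and higher in 4 of 5 control pigs. Its level differed by 0.77 at 120 min (adjusted p = 0.13) and by 0.10 at the last biopsy. SMYD1, a muscle methyltransferase needed for sarcomere assembly, differed by -0.49 ± 0.19 and was lower in 6 of 6 shunt pigs and higher in 2 of 5 control pigs. Without control pig 3 the SMYD1 difference was -0.32.

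Lipid genes among the 12 were ABCA1, the cholesterol exporter (-0.37 ± 0.13), APOC2, the cofactor of lipoprotein lipase (-0.38 ± 0.14), and ELOVL3, a fatty acid elongase (-0.42 ± 0.13). ELOVL3 did not overlap between the arms but had mean levels of 3.14 before and 2.99 after in shunt pigs and of 3.10 before and 3.38 after in control pigs, near the bottom of the range. C7H14orf1 did not overlap either (-0.28 ± 0.09) and had all shunt pigs down and all control pigs up, with the highest shunt pig at -0.03 and the lowest control pig at 0.02. SNAP91 (-0.45 ± 0.15), MLF1 (-0.39 ± 0.13), JPH3, a junctophilin (-0.27 ± 0.10), and FNBP4, a formin-binding protein (-0.55 ± 0.21, other probe set -0.41), completed the 12. JPH3 differed in level by 0.31 at 120 min (adjusted p = 0.119) and by 0.04 at the last biopsy.

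Over all genes the arms did not overlap for 13 of 6765 (0.192%), 8 with every shunt pig above every control pig (0.118%) and 5 with every shunt pig below (0.0739%). Over all probe sets it was 60 of 23999 (0.25%), 30 above (0.125%) and 30 below (0.125%), and 9 probe sets had all shunt pigs up and all control pigs down (0.0375%) against 8 with the reverse (0.0333%). The 24 genes were picked for their small p, so that the 8 among them without overlap add nothing to it. Among probe sets with no gene symbol here, the 2 smallest p of each sign went with differences of 0.41 ± 0.10 (unadjusted p = 0.000305) and 0.49 ± 0.13 (unadjusted p = 0.000757) among the higher and of -0.40 ± 0.11 (unadjusted p = 0.00141) and -0.81 ± 0.23 (unadjusted p = 0.00165) among the lower.

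**Figure D4:**
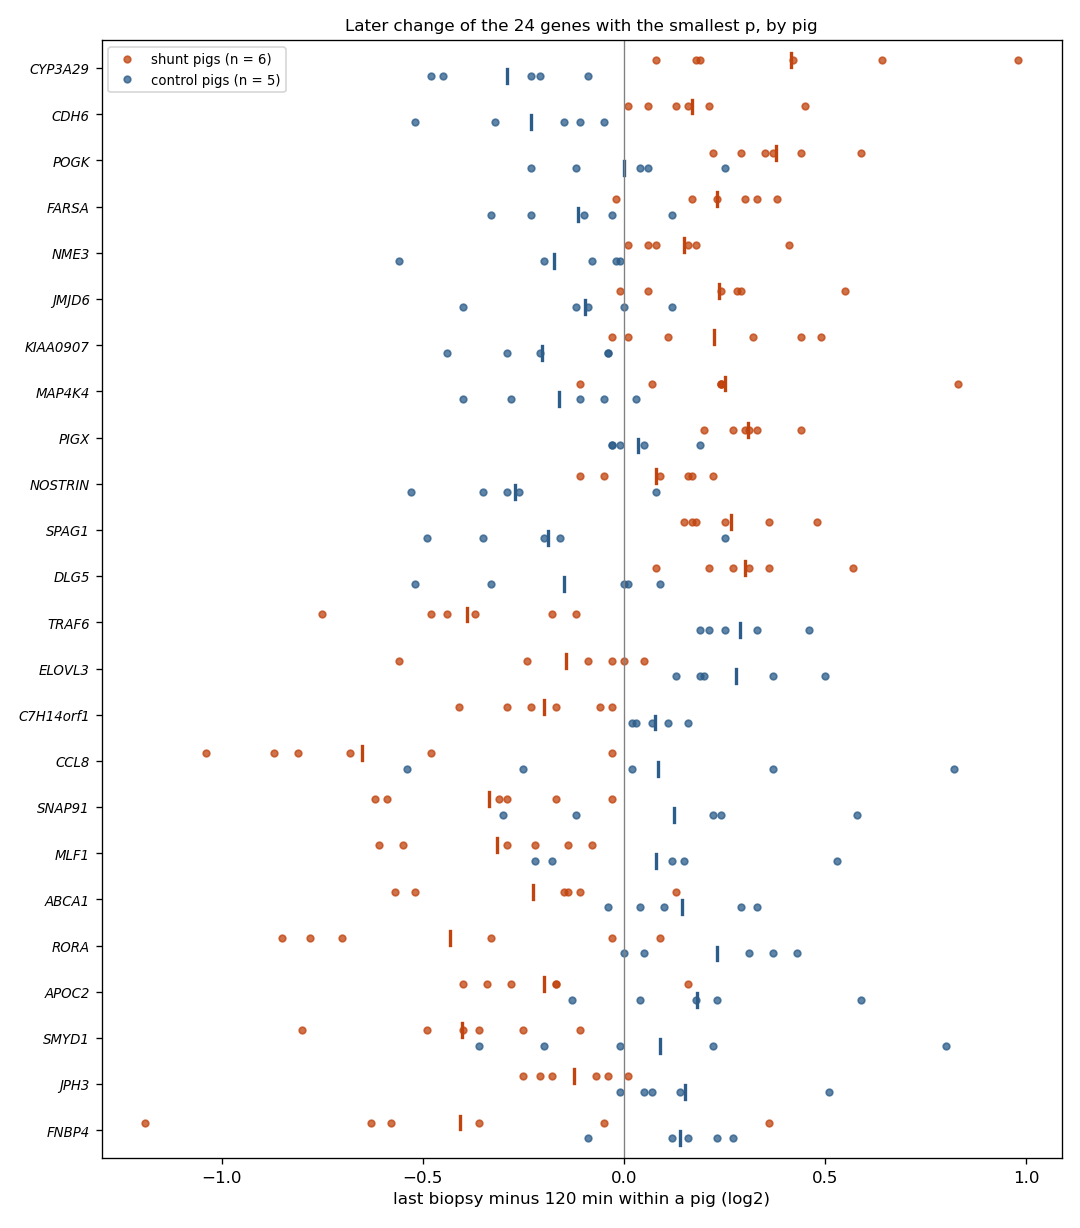
Later change (last biopsy minus 120 min within a pig, log2, horizontal axis) of the 12 genes with the smallest p among those higher in shunt pigs (upper block) and the 12 among those lower (lower block), with 1 point for each of 6 shunt pigs (orange, upper row of each gene) and 5 control pigs (blue, lower row) and a bar at the mean. The arms do not overlap for 8 of the 24, among them CYP3A29 and TRAF6, and none of the 24 passed the adjusted test.

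The arms were not level when the shunt was opened, which sets the start of each later change. At 120 min, before the shunt, 84 of 23999 probe sets (0.35%) differed by limma on the 11 arrays of that time, 58 higher and 26 lower in shunt pigs, and 3903 (16.3%) had an unadjusted p under 0.05. Of the 84, 35 represented a gene, 22 higher and 13 lower, or 0.517% of the 6765 genes. Leaving out 1 pig gave counts from 7 (without shunt pig 4) to 165 (without shunt pig 5), and without any pig but control pig 2 the count moved by over 1.5 times. In all 84 the level difference at the last biopsy, in the same pigs, had the sign it had at 120 min, and 0 of the 84 passed there. In the later change 0 of the 84 passed, and 4 had an unadjusted p under 0.05.

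In the heat shock list 1 of 26 genes passed at 120 min and in the cytokine list 1 of 23, both higher in shunt pigs, and 0 of 20 immediate early genes did. At an unadjusted p under 0.05 in limma, 10 of 20 immediate early genes were higher and 0 lower, and the list's median difference was 0.45. It was 13 higher and 1 lower of 26 heat shock genes, and 10 higher and 0 lower of 23 cytokine genes. Of 21 ribosome biogenesis genes 14 were higher and 1 lower, against 675 higher and 650 lower of all 6765 genes. AREG, a ligand of the EGF receptor, was higher by 2.70 ± 0.29 (adjusted p = 0.00405), and the later change differed by -0.38 ± 0.65, leaving 2.32 at the last biopsy. HSPA6 was higher by 3.65 ± 0.65 (adjusted p = 0.044), with 3.35 at the last biopsy. PTX3 was higher by 1.90 ± 0.30 (adjusted p = 0.0281), with 1.99 at the last biopsy, and HSP70.2, another inducible HSP70 gene, by 2.02 ± 0.34, with 1.79. HSP70.2 is not counted in the heat shock list. Nor is HSPA13, which was higher by 0.67 ± 0.12 (adjusted p = 0.044), with 0.81 at the last biopsy. TLR4, the lipopolysaccharide receptor, was higher by 0.83 ± 0.12 (adjusted p = 0.0277), with 0.74. None of these named genes passed at the last biopsy, where the adjusted p was 0.187 for AREG, 0.208 for HSPA6, 0.17 for PTX3, 0.194 for HSP70.2, 0.15 for HSPA13 and 0.168 for TLR4.

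In the list of fatty acid uptake, storage and oxidation 3 of 28 genes passed at 120 min, all lower in shunt pigs, and 0 of 38 oxidative phosphorylation subunits did. At an unadjusted p under 0.05 in limma, 12 of those 28 were lower and 2 higher, and 12 of the 38 subunits were lower and 0 higher. CPT1B, the carnitine transferase of muscle mitochondria, was lower by a log2 difference of -0.67 ± 0.11 (adjusted p = 0.0281), and its later change differed by 0.01 ± 0.18. The differences at 120 min were -0.74 ± 0.14 for HADHA and -0.69 ± 0.13 for ACADVL, enzymes of beta-oxidation, and -0.94 ± 0.16 for FABP4, a fatty acid carrier of adipocytes and vessels. Their later changes differed by -0.02 ± 0.12 for HADHA, 0.01 ± 0.14 for ACADVL and 0.11 ± 0.23 for FABP4. These 4 level differences were still -0.66 for CPT1B, -0.76 for HADHA, -0.68 for ACADVL and -0.83 for FABP4 at the last biopsy, where none passed. FABP4 and the lipase gene LIPE (-0.82 ± 0.15) are 2 of the 4 measured adipocyte markers, of which FABP4 had the highest level and ADIPOQ the lowest. The others of the 4 had no unadjusted p under 0.05 in limma at 120 min. The summed linear level of the 4 at 120 min was 1759 to 2741 in shunt pigs, against 3071 to 5110 in control pigs, without overlap. At the last biopsy it was 1082 to 3998 in shunt pigs, against 3241 to 4748 in control pigs. On the linear scale the sum mostly follows FABP4 (mean level 11.5, against 3.98 for ADIPOQ), so it adds little to the FABP4 result. The share of all genes without overlap at 120 min was not counted. The part of fat cells in these level differences was not tested.

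At the last biopsy itself 4 of 23999 probe sets (0.0167%) differed by limma, all lower in shunt pigs, and 3817 (15.9%) had an unadjusted p under 0.05. Only 1 of the 4 has a symbol here, LOC100624648 (-0.69, adjusted p = 0.00914), which stood at -0.46 at 120 min. The count was 302 without shunt pig 5, 2 without shunt pig 6 or without control pig 2, 3 or 5, and 1 without control pig 4. Because the array sets follow the arms, level differences cannot be told apart from the array sets.

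**Figure D5:**
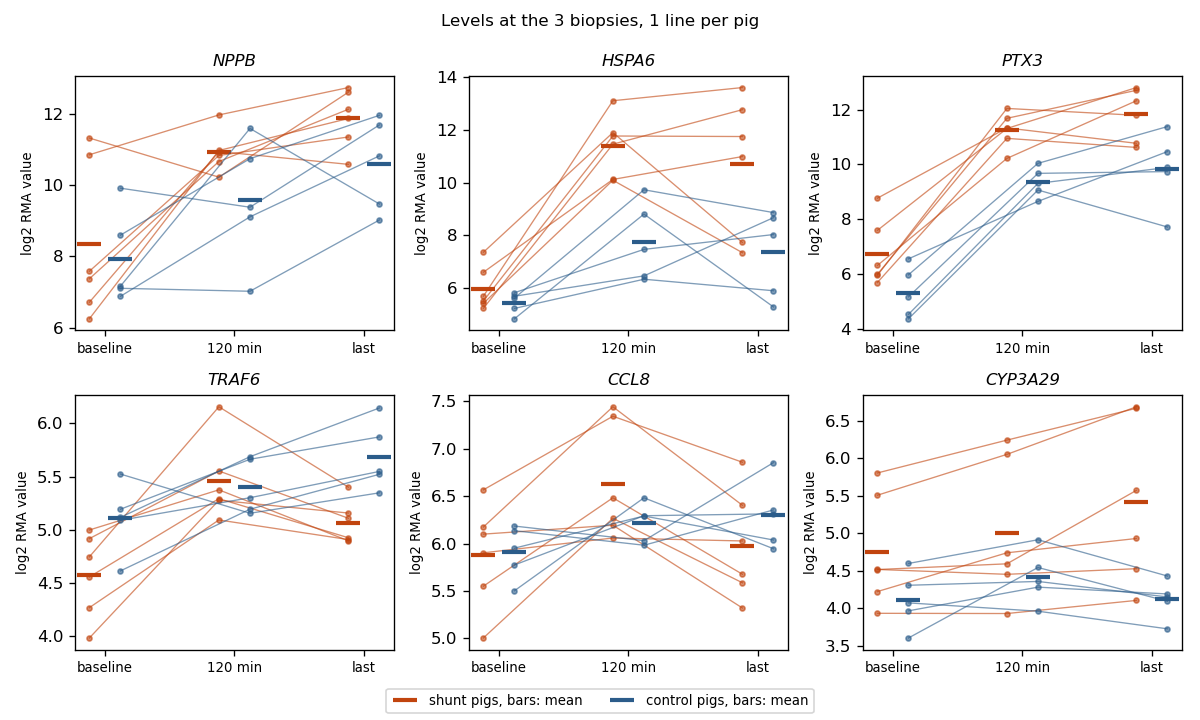
Log2 RMA level (vertical axis) of NPPB, HSPA6, PTX3, TRAF6, CCL8 and CYP3A29 at baseline, 120 min and the last biopsy (horizontal axis), with 1 line for each of 6 shunt pigs (orange, drawn to the left) and 5 control pigs (blue) and a short bar at each mean. HSPA6 and PTX3 were higher in shunt pigs at 120 min by 3.65 and 1.90, before the shunt, and by 3.35 and 1.99 at the last biopsy.

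Across 23999 probe sets, which are not independent, the later changes of pairs of shunt pigs had correlations of -0.257 to 0.523 with a median of -0.0555 (15 pairs), and those of pairs of control pigs of -0.482 to 0.28 with a median of -0.0226 (10 pairs). Pairs of pigs from different arms had a median of 0.0403 (30 pairs, -0.229 to 0.287). Each pig enters many pairs. The highest correlations joined shunt pigs 2 and 6 (0.523) and shunt pigs 1 and 2 (0.401), above the highest between arms. The number of probe sets past 2-fold was 147, 663, 79, 226, 120 and 58 in shunt pigs 1 to 6, and 98, 39, 293, 76 and 105 in control pigs 1 to 5. Shunt pig 2 and control pig 3 had the most in their arms.

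Markers of other cell types moved within pigs in both arms, and 0 of 95 distinct markers passed or had an unadjusted p under 0.05. The erythrocyte list (4 of 4 measured genes positive, median difference 0.48) had later medians of 0.57, 1.35, 1.25, -0.34, 1.12 and 0.09 in shunt pigs 1 to 6. Values in control pigs 1 to 5 were 1.45, -0.35, 0.53, 0.38 and -0.94. High and low pigs were in both arms. The summed linear level of these 4 genes at the last biopsy was 645 to 3390 in shunt pigs, against 544 to 915 in control pigs, and at 120 min 477 to 1586 in shunt pigs, against 444 to 878 in control pigs.

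Of 9 neutrophil and monocyte markers 7 had a positive difference, with a median of 0.08, and their summed level at the last biopsy was 1233 to 3433 in shunt pigs, against 886 to 1276 in control pigs. At 120 min it was already 983 to 2074 in shunt pigs, against 788 to 1073 in control pigs. All 7 resident macrophage markers had a negative difference, with a median of -0.16. It was 6 of 7 when arrays were centred on their medians or quantile normalised again. Their summed level at 120 min was 1611 to 2845 in shunt pigs, against 1435 to 1778 in control pigs. At the last biopsy it was 1637 to 2496 in shunt pigs, against 1589 to 2119 in control pigs. The 13 ventricular cardiomyocyte markers had a median of -0.06. The part of these cells in the values of the cytokine, chemokine and haem genes was not tested.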

How the data were processed

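RNA from 33 biopsies of 11 pigs was hybridised to 1 Affymetrix porcine array each, after TRIzol extraction and RNeasy purification, per the labels' protocols. The deposited values are on the log2 scale, 1 per probe set, and were computed by the authors with RMA, per the submitters' processing notes. Neither its version nor the arrays normalised jointly were stated in those sources. RMA places all arrays on a shared distribution, so a shift of most genes would be hidden. Values were used as deposited, unfiltered. Of 24123 probe sets, 124 controls were left out and 23999 tested. Platform annotation gave 10069 a single symbol, 198 several and 13732 none, and 9961 matched RefSeq by Entrez identifier. Each gene was represented by the brightest, by mean, of its single-symbol probe sets (6765 genes, 2261 with more than 1 probe set).

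limma 3.58.1 in R 4.3.3 (lmFit, eBayes) was fitted to all 33 arrays with pig as a fixed block, since the labels name the animal of every biopsy, and the later changes of the arms were compared as an interaction (18 residual degrees of freedom). After group means were removed, arrays of one pig correlated at a median of 0.395 (0.081 to 0.709) and of different pigs at -0.0524, and 28 of 33 arrays were closest to one of their own pig. Levels at 120 min and at the last biopsy were compared on the 11 arrays of that time. Tests were two-sided, with Benjamini-Hochberg adjustment over 23999 probe sets at 0.05. Errors of later changes and differences are SE, and intervals are at 95%. The exact permutation test used scipy 1.17.1. The code was tested on simulated data. Whether the pigs were handled separately beyond their labels is not stated.

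Named genes were the 12 with the largest difference of each sign among genes that passed or, where fewer than 5 passed, the 12 with the smallest p of that sign, up to 3 members of each list, and a panel of 30, of which 26 were measured. Probe sets called at 120 min or at the last biopsy and the genes chosen from them for the text were chosen after their values were seen. The members, lists and panel were chosen with earlier results of these data known. The 23 gene lists and 14 marker lists are described by counts and medians. Alternatives were other scalings, no pig block or a random one (statmod 1.5.0), other eBayes settings, a filter on the lowest 30%, array weights, other probe set choices, each array set of shunt pigs alone, only the 22 arrays compared, and each pig left out.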

Additional observations from a re-analysis of the deposited data

Results flagged for a closer look

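Of 146 groups of later changes, 6 held a pig farther from the others than the critical value of Dixon's test, and chance gives about 1 in 20 groups. Among shunt pigs, FHL2, a LIM-domain partner of titin and integrins, had a later change of 0.29 in pig 4, with the other 5 between -0.63 and -0.40. CIRBP, the cold-inducible RNA-binding protein gene, was at 0.75 in pig 5, with the others between -0.25 and -0.01. LPL was at 0.25 in pig 1, with the others between -0.52 and -0.23. Among control pigs, the proteasome gene PSMB8 was at -0.76 in pig 3, with the others between -0.12 and 0.10. DKC1 was at 0.58 in pig 2, with the others between -0.45 and -0.21. NPPB was at -2.13 in pig 5, with the others between 1.23 and 2.31. The 6 values came from 6 different pigs.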

How the results depend on the processing

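No probe set passed for the difference in the later change under any of 23 alternatives (smallest adjusted p 0.2675 to 0.9999, 163 to 1394 at an unadjusted p under 0.05), nor for the later change in control pigs. With no pig block, and so no paired comparison, 0 passed for the difference, with 342 at an unadjusted p under 0.05 against 737 with it. In shunt pigs 1 probe set passed with pig as a random block, 7 with array quality weights, and 0 to 11 with each pig left out (11 without shunt pig 5, 3 without shunt pig 4). At an unadjusted p under 0.05 the shunt arm had 1035 higher and 1111 lower, and 1445 higher and 759 lower after centring on array medians. The control arm held 316 higher and 421 lower. The count at 120 min was 7 to 165 with each pig left out, and at the last biopsy 1 to 302, and 15 with the lowest 30% of probe sets left out. The GAPDH difference of 0.00 ran from -0.08 to 0.08 with each pig left out.

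Of 1650 values of 72 named genes under the alternatives, 1587 kept direction and side of the threshold and 63, of 19 genes, had the opposite sign. No value passed (lowest adjusted p 0.7882). None of the 24 genes with the smallest p was among the 19. They were picked for that p in these data, so their kept signs add nothing to it. Another probe set of POGK, of KIAA0907 and of TRAF6 did have the opposite sign. With array weights the differences were 0.01 for NPPB, 0.03 for MYC and 0.15 for HSPA6. With quantile normalisation MYH7 was 0.01. With the mean of a gene's probe sets VEGFA was -0.12 and ATP2A2 0.01. With only shunt pigs 1 to 4 against the control pigs MYC was 0.01, PTX3 -0.06, KLF2 -0.02 and NOS3 0.07. With only shunt pigs 5 and 6 XIRP1 was -0.06, ATF3 -0.21, IL6 -0.12, CCL2 -0.04, CXCL8 -0.27 and PDK4 -0.20. With each pig left out the differences ran from -0.53 to 1.12 for NPPA, -0.86 to 0.25 for NPPB, -0.02 to 0.15 for ANKRD1, -0.06 to 0.20 for XIRP1, -0.28 to 0.42 for ATF3, -0.44 to 0.11 for MYC, and -0.37 to 0.42 for PTX3. They ran from -0.10 to 0.93 for IL6, -0.25 to 0.64 for CXCL8, -0.29 to 0.11 for ICAM1, -1.08 to 0.39 for HSPA6, -0.14 to 0.32 for BAG3, -0.09 to 0.08 for KLF2, -0.17 to 0.05 for NOS3 and -0.09 to 0.26 for PDK4. The causes were not tested. The number of pigs, and the array sets that follow the arms, limit all comparisons of the arms.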
